A study of Mus musculus with 9 samples.

Results

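The genes described here are 8 genes of the deposited count table, chosen by name from 56748 genes: the secreted Wnt antagonists and related Dickkopf genes Sfrp1, Sfrp2, Sfrp5, Frzb, Wif1, Dkk3 and Dkk2, and Kremen1, a membrane receptor for Dickkopf proteins. Each name matched 1 gene. The levels were measured by RNA sequencing in cultured chondrocytes, the cells of cartilage, that had been released with collagenase D from knee cartilage of wild-type mice. There were 3 groups of 3 libraries each: cells given IL-1β together with recombinant SFRP5, cells given IL-1β alone, and control cells. IL-1β is an inflammatory cytokine that is widely used to provoke matrix breakdown in cartilage cells, and the recombinant SFRP5 is the protein product of 1 of the 8 genes. All 3 groups were wild type, and the labels give no age of the mice, no dose and no treatment time. No group received SFRP5 alone, so its effect could be measured only on top of IL-1β.

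Wnt proteins are secreted signals that bind Frizzled receptors together with the co-receptors LRP5 and LRP6, and the best known outcome is the stabilisation of β-catenin, which switches on target genes through TCF and LEF factors. The secreted antagonists act outside the cell. The SFRP proteins and FRZB, which is also called SFRP3, carry a cysteine-rich domain like that of the Frizzled receptors and bind Wnt ligands, and WIF1 binds Wnt ligands through a domain of its own. The Dickkopf (DKK) proteins bind the co-receptors instead, although DKK3 is the divergent member of that family and its part in Wnt signalling is less clear. KREMEN1 is not secreted: it is a membrane receptor that binds Dickkopf proteins and helps to remove LRP6 from the cell surface. In cartilage these antagonists are known for holding Wnt activity in check, and mice without Frzb show more cartilage damage in arthritis models.

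The depth was 15795985 to 20688963 counts per library, so that 3 counts in a library equalled 0.135 to 0.195 CPM, the unit for counts scaled to a common library size. Of the 8 genes, 7 had enough counts to be tested and Dkk2 did not. The cultures carried the defining transcripts of cartilage. All 12 chondrocyte markers had counts, with a summed level of 31593 to 33018 CPM with IL-1β and SFRP5, 26166 to 27458 CPM with IL-1β and 116208 to 118837 CPM in control. Most of that sum was Col2a1. All 12 were lower than in control with IL-1β, and also with IL-1β and SFRP5, with a median log2 change of −1.59 in each case. Of all tested genes, 40.4% and 39% were lower in these comparisons. With SFRP5 against IL-1β, 5 of the 12 rose and 1 fell. Markers of other cells also moved. Osteoblast markers fell alongside the antagonists with IL-1β: all 4 tested of 6 were lower than in control, with a median log2 change of −4.54, and the summed level of the 6 was 3.13 to 4.93 CPM with IL-1β and SFRP5, 2.43 to 4.12 CPM with IL-1β and 64.2 to 71.1 CPM in control. One of them, Dmp1, was at 0 counts in both groups with IL-1β. Of the 4 tested, Bglap, Ibsp and Sp7 had enough counts for a test only in control, so their place among the falls was largely set by that filter. The summed level of 10 macrophage markers was 19.2 to 23.5 CPM with IL-1β and SFRP5, 28.4 to 30.1 CPM with IL-1β and 13.2 to 14.5 CPM in control. This list did not move one way either. With IL-1β against control Mrc1 (11.2 against 1.62 CPM), Cd68 (6.80 against 1.46 CPM) and Csf1r rose, while Lyz2 stayed level (7.83 against 7.82 CPM). The untested C1qa, C1qb and C1qc had fewer counts with IL-1β than in control (5 against 19, 2 against 21 and 8 against 23). The sum of 9 markers of synovial and other fibroblasts was 4944 to 5326, 3554 to 3691 and 8437 to 8724 CPM in the same order of groups. Most of the fibroblast sum was Col1a1 and Col3a1, and the list did not move one way: with IL-1β against control 6 of its 8 tested genes fell, whereas Pdpn rose 11.2-fold and Cd34 2.68-fold; with SFRP5 against IL-1β 4 rose, and Pdpn and Cd34 fell. The sum of 5 endothelial markers was 2.24 to 3.25, 3.33 to 4.19 and 0.361 to 0.508 CPM, and that of 6 skeletal muscle markers 1.53 to 2.86, 0.848 to 1.59 and 4.06 to 5.87 CPM, with 2, 1 and 1 of the endothelial and 1, 1 and 2 of the muscle markers at 0 counts in these groups. Of 7 neutrophil markers, 3 were at 0 counts with IL-1β and SFRP5 and 5 each with IL-1β and in control. Their sum was 4.83 to 7.22, 5.83 to 7.21 and 0 to 0.0508 CPM in these groups. With IL-1β that sum was Camp and S100a8 alone, and S100a9 and Ly6g had 0 counts in all groups. The part of these cells in the results was not tested, and in such bulk libraries fewer cells of a type and less RNA per cell cannot be told apart.

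Promoter sequences are shown for 4 antagonists that bind Wnt ligands, Sfrp5, Frzb, Sfrp2 and Wif1. Each was lower in every IL-1β library than in any control library. The same held for Sfrp1, for which no promoter was listed. Such a lack of overlap, in either direction, was seen for 80% of all tested genes. RefSeq's table for GRCm38.p6 held promoters of 5 of the 8 genes, the fifth being Dkk2. Each line gives the 250 bases before the RefSeq start site, 5′ to 3′ on the strand of the gene, and capitals mark CG dinucleotides. The gene positions given further below are from GENCODE M21, which starts Frzb at 80447625 and Wif1 at 121033960. By those positions most of the Frzb window and the last bases of the Wif1 window lie inside the gene rather than before it.
Sfrp5, chr19:42202253-42202502, minus strand: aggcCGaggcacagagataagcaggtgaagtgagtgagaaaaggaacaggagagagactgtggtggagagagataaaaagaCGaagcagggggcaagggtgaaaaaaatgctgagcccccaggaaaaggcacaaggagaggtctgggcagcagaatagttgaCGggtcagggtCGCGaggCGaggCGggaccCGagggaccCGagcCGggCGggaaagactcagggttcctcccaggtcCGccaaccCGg
Frzb, chr2:80447397-80447646, minus strand: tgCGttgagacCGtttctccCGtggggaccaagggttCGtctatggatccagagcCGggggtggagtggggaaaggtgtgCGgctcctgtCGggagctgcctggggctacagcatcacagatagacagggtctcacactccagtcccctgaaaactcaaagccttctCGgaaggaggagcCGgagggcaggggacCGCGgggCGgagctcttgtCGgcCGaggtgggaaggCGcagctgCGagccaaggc
Sfrp2, chr3:83766071-83766320, plus strand: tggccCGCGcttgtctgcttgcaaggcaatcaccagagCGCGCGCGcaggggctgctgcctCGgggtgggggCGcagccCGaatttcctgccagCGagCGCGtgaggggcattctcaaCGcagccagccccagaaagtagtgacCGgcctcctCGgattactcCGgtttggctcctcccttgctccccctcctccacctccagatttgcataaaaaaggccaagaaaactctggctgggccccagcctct
Wif1, chr10:121033754-121034003, plus strand: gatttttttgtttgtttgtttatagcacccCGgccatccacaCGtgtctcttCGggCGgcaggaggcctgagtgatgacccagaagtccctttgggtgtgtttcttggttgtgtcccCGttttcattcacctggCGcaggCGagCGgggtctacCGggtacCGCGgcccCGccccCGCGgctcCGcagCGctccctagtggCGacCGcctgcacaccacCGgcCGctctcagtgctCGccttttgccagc
These windows held 13 CG dinucleotides for Sfrp5, 16 each for Frzb and Sfrp2 and 21 for Wif1, against a median of 6 over 32851 promoter windows of the same length. The share of all windows with fewer was 68.5% for Sfrp5, 74.6% for Frzb and Sfrp2 and 83.7% for Wif1. None of the 5 windows, Dkk2 included, held any of 4 motifs searched on both strands: CTTTGAT of TCF/LEF factors, TGANTCA of AP-1, the κB motif of NF-κB and ACAATGG of SOX factors. Of all windows, 3.21%, 6.75%, 1.41% and 3.02% held them, so a window without a match is the common case, and it says only that these letters were not there.

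Levels of different genes can be compared only per length, as RPKM, which here is the CPM divided by the gene length in kilobases. In control cells Frzb, Dkk3 and Sfrp2 made up most of the summed RPKM of the 8 genes. Frzb was at 83.4 ± 1.02 RPKM, Dkk3 at 73.4 ± 3.10 and Sfrp2 at 53.8 ± 1.64 (SD, n = 3), followed by Wif1 at 7.36 ± 0.128 and Kremen1 at 5.56 ± 0.167. Sfrp1 at 2.30 ± 0.606 and Sfrp5 at 2.29 ± 0.562 RPKM did not differ beyond their spread, and Dkk2 was last at 0.0730 ± 0.0318 RPKM. With IL-1β the order was another one. Kremen1 led at 8.74 ± 0.119 RPKM, Frzb came next at 4.53 ± 0.699, and Wif1 at 2.02 ± 0.437, Sfrp2 at 1.51 ± 0.327 and Dkk3 at 1.43 ± 0.246 RPKM had overlapping libraries. With IL-1β and SFRP5, Kremen1 again led at 10.3 ± 0.947 RPKM, Dkk3 at 4.71 ± 0.447 and Frzb at 4.49 ± 0.110 RPKM overlapped, and Wif1 at 2.74 ± 0.456 and Sfrp2 at 1.82 ± 0.0309 RPKM followed.

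The sum of the 8 transcripts was 24.4 ± 1.26 RPKM with IL-1β and SFRP5, 18.5 ± 0.853 RPKM with IL-1β and 228 ± 5.00 RPKM in control. The Dickkopf receptor Kremen1 was 42.1 ± 2.83% of that sum with IL-1β and SFRP5, 47.3 ± 2.32% with IL-1β and 2.44 ± 0.0924% in control. The SFRP family in this text means Sfrp1, Sfrp2, Sfrp5 and Frzb. It leaves out Sfrp4, which is not among the 8 genes and is in the list of other extracellular regulators below. The summed level of the family so defined was 6.63 ± 0.0326 RPKM with IL-1β and SFRP5, 6.28 ± 0.637 RPKM with IL-1β and 142 ± 2.79 RPKM in control. Frzb was the most abundant of the family in each of the 9 libraries, with 67.8 ± 1.82%, 72.0 ± 5.54% and 58.8 ± 0.861% of the family's RPKM in these groups, and Sfrp2 came second in each.

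**Figure D1:**
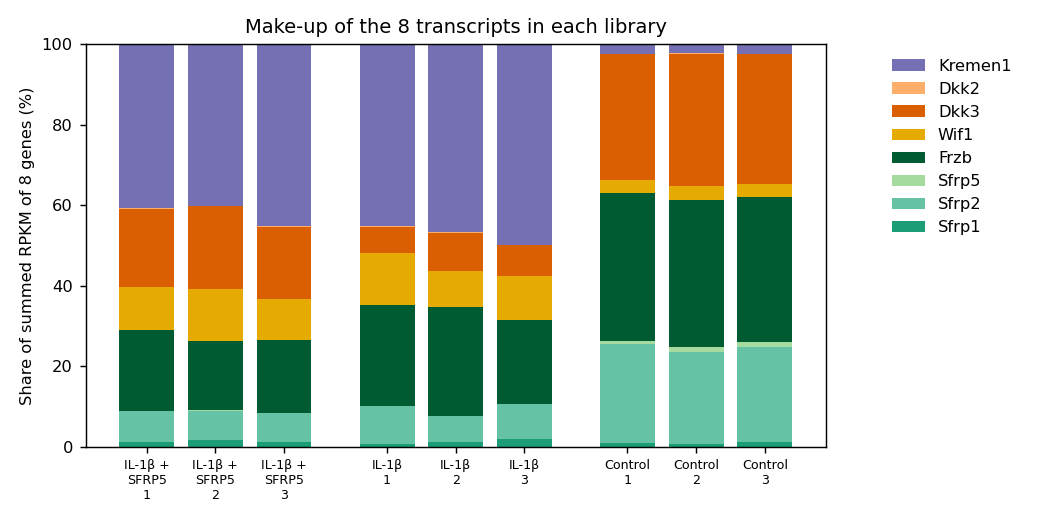
Share of the summed RPKM of the 8 genes (vertical axis, %) taken by each gene, with 1 bar per library and the libraries of a group side by side. Kremen1 takes 42.1% on average with IL-1β and SFRP5 and 47.3% with IL-1β, and 2.44% in control, where Frzb, Dkk3 and Sfrp2 fill most of the bar.

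The first comparison asked what IL-1β alone did to these genes, and of the 7 tested genes the 6 secreted ones fell while Kremen1 rose. A change was called at an adjusted p under 0.05 in edgeR's quasi-likelihood test with Benjamini-Hochberg adjustment over 15502 genes, which is the source of every adjusted p of a gene in this text unless another test is named. In this comparison 78.9% of all tested genes were called, 40.4% lower and 38.5% higher, so a call by itself does not set these 7 genes apart. The groups did not overlap for any of the 7, as for 80% of all tested genes. Apart from Sfrp5, whose fitted change depends on the prior count because it was near 0 counts with IL-1β, the log2 changes of those that fell ran from −5.68 to −1.86. The median over all tested genes was −0.03. Sfrp5 passed the filter on low counts only through its control libraries, so its place among the falls was largely set by that filter.

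Sfrp5 (ENSMUSG00000018822; chromosome 19, 42197971 to 42202252, GRCm38, GENCODE M21) encodes the protein that was added in recombinant form to the cultures with SFRP5. It had 0, 1 and 0 counts in the IL-1β libraries, against 62, 106 and 101 counts in the control libraries, which are 3.13, 4.79 and 5.13 CPM. All but 1 of its counts in these 6 libraries were thus in control cells. The ratio of depth-scaled counts was 221-fold lower with IL-1β, with an exact 95% interval of 39.3 to 8744 that covers counting error only (adjusted p = 1.93e-11). With IL-1β and SFRP5 the libraries held 0, 1 and 0 counts again, and the change from control was called as well (adjusted p = 1.77e-11). Because Sfrp5 passed the filter on low counts only through control, these calls add little to the counts themselves. The RNA of the cells' own Sfrp5 was therefore near the limit of detection in both groups with IL-1β. A difference between these 2 groups was not detectable at this depth, since 1 count against 1 leaves a ratio anywhere from 0.0122 to 75.4.

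Frzb (ENSMUSG00000027004; chromosome 2, 80411970 to 80447625), the family member with the highest level, had 15.9, 16.1 and 12.1 CPM with IL-1β, against 266, 270 and 273 CPM in control. Every IL-1β library was far below every control library. The change was −4.20 ± 0.07 on the log2 scale, or 18.4-fold lower (SE, adjusted p = 2.49e-26). Sfrp2 (ENSMUSG00000027996; chromosome 3, 83766321 to 83774316) was at 3.95, 2.54 and 3.24 CPM with IL-1β, against 117, 112 and 118 CPM in control, a change of −5.15 ± 0.09 or 35.6-fold lower (adjusted p = 6.56e-26). Sfrp1 (ENSMUSG00000031548; chromosome 8, 23411502 to 23449632) was lower to begin with and spread more, at 0.486, 0.908 and 1.54 CPM with IL-1β and 10.0, 7.45 and 12.7 CPM in control. The libraries of these groups did not overlap either, and the change was −3.34 ± 0.27 (adjusted p = 2.5e-11). Its coefficient of variation was 54.1% with IL-1β and 26.3% in control, against 1.23% for Frzb in control. Its fold of 10.1 is thus the least precise of the SFRP genes among the 8, apart from that of Sfrp5.

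**Figure D2:**
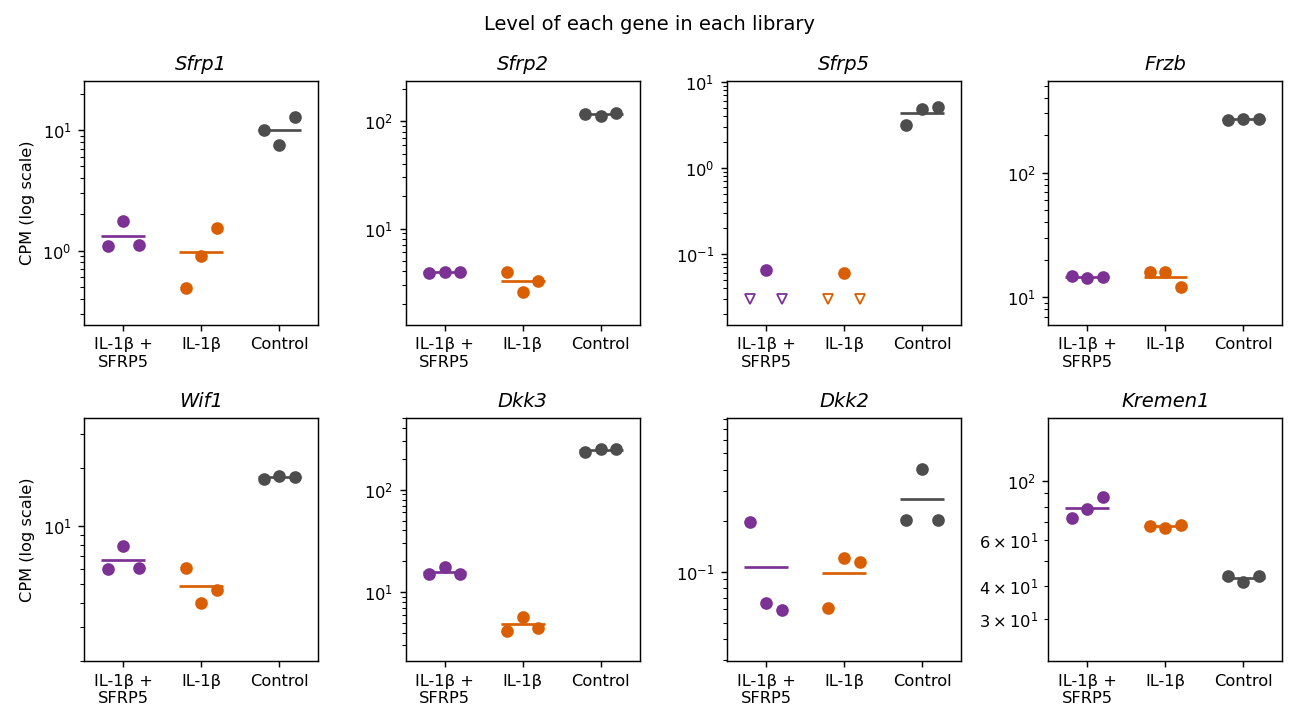
CPM of each gene on a log scale (vertical axes) in each of the 3 libraries of a group (points; lines are group means, left out where a library had 0 counts, and open triangles at the bottom stand for 0 counts). Frzb lies at 12.1 to 16.1 CPM with IL-1β against 266 to 273 CPM in control, and Dkk3 lies at 14.9 to 17.6 CPM with IL-1β and SFRP5 against 4.19 to 5.75 CPM with IL-1β.

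Wif1 (ENSMUSG00000020218; chromosome 10, 121033960 to 121100650), the antagonist with its own Wnt-binding domain, had the smallest fall. It was at 6.08, 4.00 and 4.67 CPM with IL-1β and at 17.5, 18.2 and 17.9 CPM in control, a change of −1.86 ± 0.13 or 3.63-fold lower (adjusted p = 2.64e-12). Dkk3 (ENSMUSG00000030772; chromosome 7, 112116017 to 112159057) had the largest fall apart from Sfrp5. Its level was 4.19, 5.75 and 4.50 CPM with IL-1β, against 234, 252 and 253 CPM in control, a change of −5.68 ± 0.08 or 51.2-fold lower (adjusted p = 1.68e-27). The related Dkk2 (ENSMUSG00000028031; chromosome 3, 132085292 to 132180304) had 1, 2 and 2 counts with IL-1β and 4, 9 and 4 counts in control, with a ratio of 0.359 and an exact 95% interval of 0.103 to 1.01. It had too few counts for the test, and without the filter on low counts its change was not called (adjusted p = 0.26).

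Kremen1 (ENSMUSG00000020393; chromosome 11, 5191552 to 5261558) went the other way. It had 67.9, 66.4 and 68.1 CPM with IL-1β, against 43.8, 41.5 and 43.6 CPM in control, a rise of 0.65 ± 0.06 on the log2 scale or 1.57-fold (adjusted p = 1.9e-10). The libraries within each group lay close together, with a coefficient of variation of 1.37% with IL-1β and 2.99% in control. Kremen1 was higher in the same cultures in which Dkk3 was lower, and a link between these 2 changes was not tested. Dkk1, the Dickkopf protein best known to act with KREMEN1, had 1 count over all 9 libraries together.

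The second comparison asked what recombinant SFRP5 changed in cells that also received IL-1β. Of the 7 tested genes, Dkk3, Wif1 and Kremen1 rose and none fell, while Sfrp1, Sfrp2, Sfrp5 and Frzb did not pass the test. Of all tested genes 31.3% were called in this comparison, 15.6% higher and 15.7% lower. Whether the genes that rose differ from those that did not was not tested, and the log2 differences of Sfrp1 and Sfrp2 were larger than that of Kremen1. Dkk3 had the largest rise of the 7, at 14.9, 17.6 and 15.0 CPM with IL-1β and SFRP5, against 4.19, 5.75 and 4.50 CPM with IL-1β alone. The groups did not overlap, as for 40.8% of all tested genes, and the rise was 1.71 ± 0.11 on the log2 scale or 3.27-fold (adjusted p = 1.75e-12). It remained far below control, where it was at 246 ± 10.4 CPM: the change of IL-1β with SFRP5 against control was −3.97 ± 0.07, or 15.6-fold lower (adjusted p = 7.54e-26).

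Kremen1 was at 72.3, 78.5 and 86.9 CPM with IL-1β and SFRP5, against 67.9, 66.4 and 68.1 CPM with IL-1β. Again the groups did not overlap, though the difference was small, a rise of 0.23 ± 0.06 on the log2 scale or 1.17-fold (adjusted p = 0.00262). With SFRP5 the mean of Kremen1 lay further from control than with IL-1β alone, and that of Dkk3 nearer to it. Wif1 was at 5.97, 7.94 and 6.08 CPM with IL-1β and SFRP5, against 6.08, 4.00 and 4.67 CPM with IL-1β. These ranges overlap, and the rise of 0.43 ± 0.15 on the log2 scale was only just called (adjusted p = 0.0361). The call of Wif1 was lost without SFRP5 library 2 (adjusted p = 0.193), without IL-1β library 2 (0.183) or 3 (0.097), and with the 6 libraries of this comparison alone (0.0711).

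No gene of the SFRP family passed the test with all libraries. Frzb was at 14.9, 14.2 and 14.6 CPM with IL-1β and SFRP5, against 15.9, 16.1 and 12.1 CPM with IL-1β, a log2 difference of −0.01 ± 0.09 (adjusted p = 0.966). Sfrp2 was at 3.85, 3.97 and 3.95 CPM with IL-1β and SFRP5, against 3.95, 2.54 and 3.24 CPM with IL-1β, and its log2 difference of 0.27 ± 0.15 was not called (adjusted p = 0.169); without IL-1β library 1 it was 0.43 and called (adjusted p = 0.0485). Sfrp1 was at 1.08, 1.76 and 1.12 CPM with IL-1β and SFRP5, against 0.486, 0.908 and 1.54 CPM with IL-1β, a log2 difference of 0.39 ± 0.37 (adjusted p = 0.467). Single libraries decided the size of that value, which was 0.08 without IL-1β library 1, 0.89 without IL-1β library 3 and 0.16 without SFRP5 library 2, and it was called in none of these (adjusted p = 0.914, 0.125 and 0.829). The SE of Sfrp1 was thus the widest of these 3 and that of Frzb the narrowest. Dkk2 had 4, 1 and 1 counts with IL-1β and SFRP5 against 1, 2 and 2 counts with IL-1β, and a difference was not detectable at this depth (ratio 1.15, exact 95% interval 0.293 to 4.78).

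**Figure D3:**
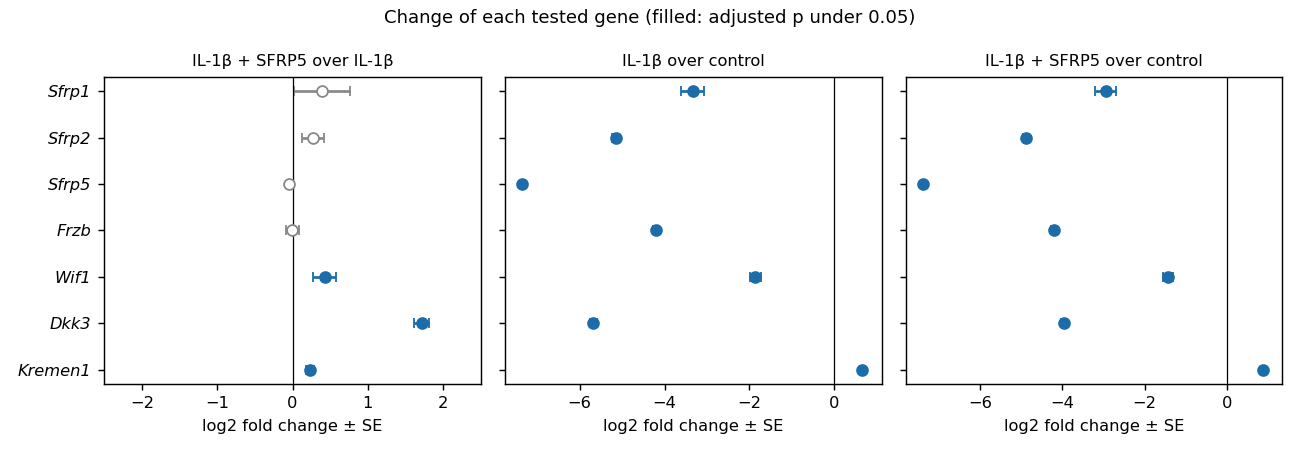
Log2 fold change of the 7 tested genes (horizontal axes; bars are the SE, left out for Sfrp5, whose fitted change depends on the prior count) in the 3 comparisons, filled where the adjusted p was under 0.05. The left axis has another scale than the other 2 panels: with SFRP5 over IL-1β the range is −0.04 to 1.71, with Dkk3 the highest.

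Whether Dkk3 moved apart from the SFRP family was also read from the ratio of their counts within each library, which no scaling between libraries can change. The pair was chosen after the values were seen. Dkk3 had 1.00, 1.24 and 1.03 counts per count of Frzb with IL-1β and SFRP5, and 0.264, 0.357 and 0.373 with IL-1β. In control it had 0.881, 0.931 and 0.928. The groups did not overlap in any of the 3 comparisons. The ratio with SFRP5 was 3.31-fold that with IL-1β, and the ratio with IL-1β was 0.359 times that in control, each with p = 0.1 in a two-sided exact permutation test, the smallest p that 3 against 3 libraries can give (adjusted p = 0.129 over 9 comparisons of 3 ratios). For Dkk3 against Sfrp2 the ratio was 4.03 ± 0.343 with SFRP5 and 1.57 ± 0.621 with IL-1β (exact permutation p = 0.1, n = 3 each), and 1.57 ± 0.621 with IL-1β and 2.13 ± 0.126 in control (exact permutation p = 0.4, n = 3 each). Kremen1 had 5.45 ± 0.558 counts per count of Frzb with SFRP5, 4.68 ± 0.838 with IL-1β and 0.159 ± 0.00560 in control. With and without SFRP5 its libraries overlapped (exact permutation p = 0.3, n = 3 each), and those with IL-1β lay above control (p = 0.1 in the same exact test).

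**Figure D4:**
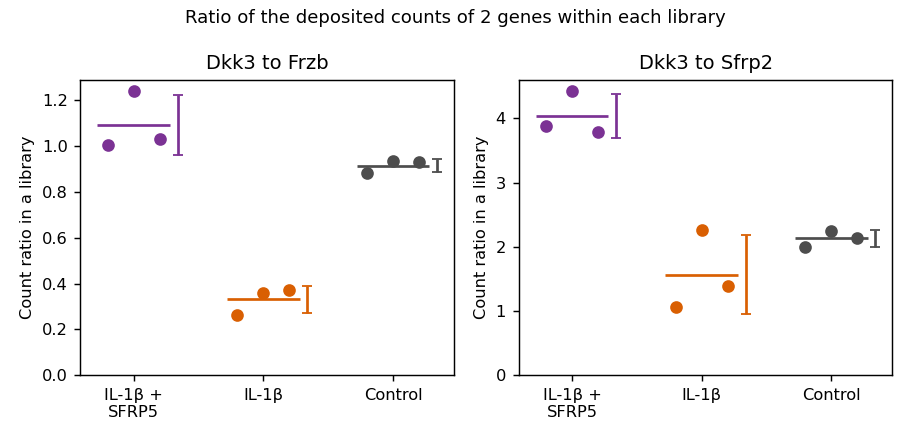
Ratio of the counts of Dkk3 to those of Frzb (left) and Sfrp2 (right) in each library (points), with the mean (line) and SD (bar beside it) of 3 libraries. The ratio to Frzb is 1.00 to 1.24 with IL-1β and SFRP5, 0.264 to 0.373 with IL-1β and 0.881 to 0.931 in control.

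In the third comparison, IL-1β with SFRP5 against control, the calls of the 7 tested genes had the same directions as with IL-1β alone, 6 lower and Kremen1 higher, where 76.3% of all tested genes were called, 39% lower and 37.3% higher. The 2 comparisons share the control libraries, through which alone Sfrp5 passed the filter on low counts. Frzb was 18.5-fold lower, Sfrp2 29.5-fold, Sfrp1 7.69-fold and Wif1 2.70-fold lower than in control, and Kremen1 was 1.84-fold higher. For IL-1β alone against control the folds, in the same order of genes, were 18.4, 35.6, 10.1 and 3.63 lower and 1.57 higher. The groups did not overlap for any of the 7 genes, as for 78.2% of all tested genes.

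The genes with the profile most like that of a member were found over the 9 libraries, by the smallest root mean square difference between log2 CPM profiles centred on their mean, among 15495 other tested genes. Frzb was nearest to Zfp648 (0.13 on the log2 scale), a gene at 0 counts in every library with IL-1β, then to Acan (0.17), which encodes the cartilage proteoglycan aggrecan, and Fgfrl1 (0.18), an FGF receptor without a kinase domain. The median difference from Frzb over all genes was 1.98. Dkk3 was nearest to Rab11fip4 (0.17), to ENSMUSG00002076121, which has no symbol in the table (0.19), and to Igsf10 (0.20). Rab11fip4 showed the same steps, at 11.5 ± 0.183 CPM with IL-1β and SFRP5, 3.48 ± 0.134 CPM with IL-1β and 198 ± 5.96 CPM in control. Sfrp2 was nearest to Sh3tc2 (0.18), the growth factor receptor Fgfr3 (0.22) and the mechanosensitive channel Piezo2 (0.23). Fgfr3 was at 17.3 ± 2.22 CPM with IL-1β and SFRP5, 17.7 ± 3.05 CPM with IL-1β and 589 ± 17.4 CPM in control. Wif1 was nearest to Mpnd (0.094), Vamp5 (0.10) and 4930579G24Rik (0.12), and Kremen1 to Trim3 (0.063), Rrnad1 (0.064) and the dystroglycan gene Dag1 (0.067). Sfrp5 was nearest to the cartilage matrix gene Matn3 (0.31), Gm10629 (0.35) and Sh3tc2 (0.35), and Sfrp1 to Gm48898 (0.29), Taf9b (0.29) and Slc25a35 (0.31). For genes with counts near 0, such as Sfrp5, Zfp648 and Gm10629, the distance depends on the prior count of 2 that was added before taking logs. Among the members themselves, the closest pairs were Sfrp2 with Sfrp5 (0.42) and Sfrp2 with Frzb (0.43), and the farthest was Sfrp5 with Kremen1 (2.79).

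Other extracellular regulators of Wnt signalling were mostly lower with IL-1β too. Of 23 listed, 13 were tested, of which 12 fell and 1 rose, with a median log2 change of −1.80; of all tested genes 78.9% were called, 40.4% lower and 38.5% higher, with a median of −0.03. The one that rose was Lgr6, a receptor for the R-spondins, which amplify Wnt signals, at 4.00 ± 0.555 CPM with IL-1β and 1.59 ± 0.452 CPM in control (adjusted p = 1.01e-05). The stem cell marker Lgr5, another R-spondin receptor, had 2 counts with IL-1β against 128 in control, a ratio of 52.5-fold lower (exact 95% interval 14.2 to 438), and the guidance protein and Wnt antagonist Draxin had 5 against 108 counts. Like Sfrp5, the genes Lgr5, Draxin and Notum (9 against 70 counts) passed the filter on low counts only through their control libraries. Their place among the 12 falls was thus largely set by the filter. With SFRP5 on top of IL-1β, 4 of the 13 rose and 2 fell, with a median of 0.05; 15.6% of all tested genes rose, 15.7% fell, and their median change was 0.01. The secreted agonist Rspo2 was at 7.53 ± 0.459 CPM with IL-1β and SFRP5, against 3.60 ± 0.142 CPM with IL-1β, a rise of 1.06 ± 0.15 in log2 terms (adjusted p = 4.18e-06), and Draxin rose to 26 counts, against 5 with IL-1β (adjusted p = 0.0073). Rspo3, at 42.5 ± 3.38 CPM with IL-1β and SFRP5 against 48.8 ± 1.36 CPM with IL-1β, and Tpbg, at 6.69 ± 0.275 against 8.88 ± 1.21 CPM, were the 2 that fell (adjusted p = 0.0148 and 0.0193). Both calls were lost without single libraries, Rspo3 without SFRP5 library 1 (0.0986) or 2 (0.0566) and Tpbg without SFRP5 library 2 (0.0508) or 3 (0.0514) or IL-1β library 1 (0.133).

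Among the Wnt ligands and the genes for their secretion, 11 of 21 were tested, and 6 fell and 3 rose with IL-1β, with a median of −1.27. That 9 of 11 were called is near the 78.9% of all tested genes. Wnt11 was at 14.3 ± 0.530 CPM with IL-1β and 4.52 ± 0.221 CPM in control, and Porcn, which attaches the lipid that Wnt proteins need, was at 14.9 ± 1.87 and 4.95 ± 0.507 CPM (adjusted p = 2.39e-12 and 8.42e-12). Wnt4 had 9 counts with IL-1β against 110 in control. Wnt16, a ligand of the joint, had 2 against 65, which is 26.6-fold lower (exact 95% interval 7.09 to 225). Wnt4, Wnt16 and Wnt10a, which had 15 counts against 78, passed the filter on low counts only through their control libraries. Their place among the 6 falls was thus largely set by the filter. With SFRP5 on top of IL-1β 5 rose and 1 fell, with a median of 0.34, beside the same 15.6% and 15.7%. Wnt5b was at 2.72 ± 0.861 CPM with IL-1β and SFRP5, against 1.02 ± 0.621 CPM with IL-1β, a rise of 1.40 ± 0.35 in log2 terms (adjusted p = 0.00319). Wnt9a rose by 0.97 ± 0.35 (adjusted p = 0.0392), a call that DESeq2 did not make (0.0668) and that was lost without any 1 of SFRP5 libraries 1 (0.178) and 3 (0.094), IL-1β libraries 1 (0.0529), 2 (0.0667) and 3 (0.158) and control library 2 (0.0502). Wnt11 was the one that fell, to 11.1 ± 1.04 CPM with IL-1β and SFRP5, against 14.3 ± 0.530 CPM with IL-1β (adjusted p = 0.0121, and 0.0553 without SFRP5 library 2).

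The genes listed as Wnt receptors and co-receptors changed in both directions. Of 17 listed 16 were tested, and with IL-1β 10 fell and 4 rose, with a median of −1.37, where 78.9% of all tested genes were called. The list includes Smo, which is related to the Frizzled receptors but carries Hedgehog signals rather than Wnt signals. Smo fell by 1.39 with IL-1β and rose by 0.29 with SFRP5 on the log2 scale, and is in the counts of both comparisons. Fzd9 fell by 6.38 ± 0.11 on the log2 scale to 1.43 ± 0.284 CPM with IL-1β, against 119 ± 2.83 CPM in control, and Fzd4 fell by 4.32 ± 0.15, whereas Fzd1 rose to 171 ± 1.58 CPM with IL-1β, against 41.9 ± 2.23 CPM in control, and Fzd3 by 0.57 ± 0.10 on the log2 scale (adjusted p = 1.02e-25, 4.65e-19, 6.77e-22 and 2.57e-05). With SFRP5 on top of IL-1β 10 of the 16 rose and 1 fell, with a median of 0.29, beside 15.6% and 15.7% of all tested genes. Ror1, a receptor for Wnt5a-type ligands, rose to 5.56 ± 0.978 CPM with IL-1β and SFRP5, against 2.63 ± 0.497 CPM with IL-1β, and Fzd4 rose by 0.93 ± 0.22 on the log2 scale (adjusted p = 3.67e-05 and 0.00158). Fzd1 was the one that fell, by 0.16 ± 0.05 on the log2 scale (adjusted p = 0.0116, and 0.0884 without SFRP5 library 2).

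Target genes of Wnt and β-catenin changed in both directions. Of 24 names listed, 23 matched a gene and 20 were tested. With IL-1β 6 rose and 12 fell, with a median of −1.38. Znrf3, Apcdd1, Lgr5 and Notum are also in the list of other extracellular regulators, and their falls are counted in both lists. The 12 include Lgr5 and Notum, which passed the filter on low counts only through their control libraries. Calls in both directions were also the rule among all tested genes, 38.5% higher and 40.4% lower. Fosl1, a subunit of AP-1, rose by 4.70 ± 0.07 and Cd44, the hyaluronan receptor, by 4.48 ± 0.04 on the log2 scale. Ccn5, a matricellular protein also called WISP2, fell by 7.70 ± 0.10 on the log2 scale to 1.17 ± 0.119 CPM with IL-1β, against 244 ± 1.36 CPM in control (adjusted p = 3.9e-28). With SFRP5 on top of IL-1β 5 rose and 4 fell, with a median of −0.08, where 31.3% of all tested genes were called. Ccn5 had the largest rise of the lists, 4.72 ± 0.13 on the log2 scale or 26.3-fold, to 30.7 ± 3.95 CPM with IL-1β and SFRP5, against 1.17 ± 0.119 CPM with IL-1β (adjusted p = 1.6e-19). Birc5, which encodes survivin, rose by 1.00 ± 0.25 (adjusted p = 0.00315). Cd44 fell to 738 ± 16.9 CPM with IL-1β and SFRP5, against 1625 ± 31.7 CPM with IL-1β (adjusted p = 1.06e-18). Axin2, a feedback inhibitor that is read as a sign of β-catenin activity, fell by 0.92 ± 0.29 on the log2 scale (adjusted p = 0.0156). It was at 1.63 ± 0.311 CPM with IL-1β and SFRP5, against 3.04 ± 0.883 CPM with IL-1β. That call was lost without SFRP5 library 1 (0.0854) or IL-1β library 1 (0.0908) or 3 (0.0517). Besides Ccn5 and Birc5, the targets that rose were Ccn4 (log2 change 0.54), Myc (0.41) and Ccnd1 (0.38), with adjusted p of 1.41e-06, 8.02e-06 and 0.000118. Besides Cd44 and Axin2, those that fell were Fosl1 (−0.25) and Vegfa (−0.11), with adjusted p of 0.000403 and 0.0279. Among the 11 targets not called with SFRP5 were Lef1 (0.64), Znrf3 (0.25), Notum (−0.05), Tcf7 (−0.12), Nkd1 (−0.13) and Nkd2 (−0.43). With IL-1β against control, Axin2 and Nkd2 were among the 6 that rose, Axin2 with overlapping libraries. Lef1, Znrf3, Notum, Tcf7 and Nkd1 were among the 12 that fell. The activity of β-catenin itself was not tested.

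**Figure D5:**
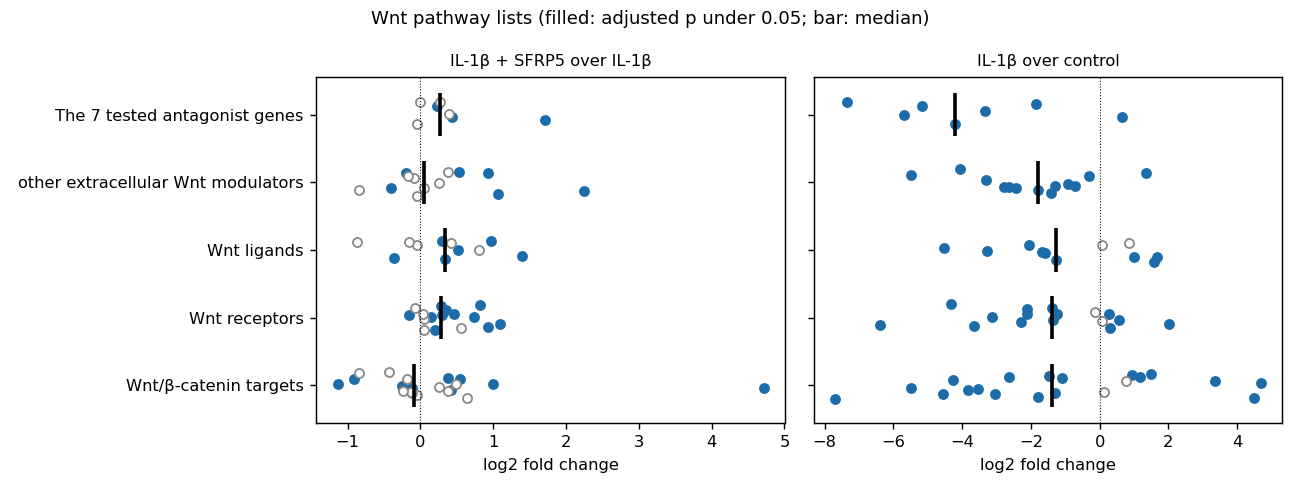
Log2 fold change (horizontal axes) of each tested gene among the 8 and of 4 lists of Wnt genes, with SFRP5 added to IL-1β (left) and with IL-1β over control (right); points are filled where the adjusted p was under 0.05, black bars are medians, and the 2 panels have different scales. With IL-1β the 4 list medians lie between −1.80 and −1.27, and with SFRP5 between −0.08 and 0.34, with Ccn5 at 4.72.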

How the data were processed

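Total RNA of cultured chondrocytes was sequenced as 150 bp read pairs from strand-keeping NEBNext libraries; per the labels' protocols, fastp trimmed the reads, STAR mapped them to mm10 and RSEM did the counting, with no versions stated. The deposited values are whole-number gene counts, not scaled between libraries, in 1 table for 9 libraries; the rounding of RSEM's estimates and the strand setting are not given in the sources used here. An opposite-strand gene, Gm26771, overlaps Sfrp2 and had 37 counts in all 9 libraries. Columns were matched to libraries by letter and last digit. The members' start and end positions in the table differ from GENCODE M21 on GRCm38 while their spans are equal, so positions are printed from GENCODE M21.

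Of 56748 genes, 15502 passed edgeR's filterByExpr by group. edgeR 4.0.16 (R 4.3.3) fitted 1 mean per group over 9 libraries with TMM factors, and the quasi-likelihood test was adjusted by Benjamini-Hochberg. CPM are relative to TMM-corrected library sizes; RPKM divide them by the gene length that the authors' table lists. SEs derive from the change and its F statistic. Nothing says that libraries of a group came from separate animals or cultures, so p-values reflect only how far these libraries spread, and that spread may be technical; exact intervals and the limit of 3 counts cover counting error only. Alternatives were RLE and upper-quartile factors, no low-count filter, DESeq2 1.42.0, only the 6 libraries compared, the replicate number as a block, and leaving out each library. The members and lists were chosen with earlier results of these data known. Named genes are the members, the 2 largest called rises and falls of each list in the first and second comparison, and the 3 nearest profiles of each member. Dkk1, the targets named beside Axin2 and the count ratios were chosen after values were seen.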

Additional observations from a re-analysis of the deposited data

How the results depend on the processing

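Of the 7 tested members, all 7 were called in IL-1β against control and in IL-1β with SFRP5 against control under each of the 15 alternatives, with the same directions. Among them, Sfrp5 passed the filter of the main fit only through its control libraries. In IL-1β with SFRP5 against IL-1β, 3 were called with RLE or upper-quartile factors, no low-count filter, DESeq2 or the replicate block, 2 with the 6 libraries compared, and 2 to 4 when a library was left out. The log2 rise of Dkk3 with SFRP5 ranged from 1.62 to 1.86 and that of Kremen1 from 0.16 to 0.29, called under each alternative. Upper-quartile factors moved the median log2 change of all tested genes with IL-1β to −0.18, from −0.03 with TMM factors; the members kept their directions. The total of calls in each list, rises and falls together, stayed within 1.5 times its value under each alternative, but the falls with SFRP5 did not: without SFRP5 library 2 the falls of Tpbg, Rspo3, Wnt11 and Fzd1, the only ones of their lists, were not called (adjusted p = 0.0508, 0.0566, 0.0553 and 0.0884). Libraries of the same replicate number did not deviate together (r of −0.036 to 0.040 over 9 pairs, across genes), and 4 of 18 best matches went to the same number. No pairing by number was thus visible, but a weak one could stay hidden in the counting error, so this does not show that the libraries are unpaired. With the replicate number as a block 3, 7 and 7 members were called in the 3 comparisons as without it, while the call of Wnt9a with SFRP5 was lost (adjusted p = 0.0647). Depth limits Sfrp5 with IL-1β and Dkk2 in all groups, where a library held 0 to 9 counts. The cause of the lost calls of Wif1 and the other genes named above was not tested.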
